A study of Mus musculus with 16 samples.

Results

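The miRNAs described here are the late entries of the mouse miRNA catalogue: mature miRNAs whose name carries a number of 3000 or more and whose raw counts summed to at least 160 over 16 small RNA libraries. Of 1372 miRNA names with usable counts, 646 carried such a number, and 108 of these (16.7%) reached that sum. They were thus chosen by their summed raw counts, and their levels are given as a description. The sum took no account of treatment, so a member with few counts on one side of a comparison can have reached it through the other side. A further late name, miR-6993-3p, was left out because of its pattern over the treatments: its row and the next, that of the older miR-1839-5p, look exchanged in the quercetin libraries, with means of 0.125 and 7351 counts without quercetin and 6666 and 1 with it. The libraries came from cultured bone marrow dendritic cells of 4 wild-type male C57BL/6 mice, aged 8 weeks for mice 1 to 3 and 7 weeks for mouse 4, after lysis of red cells. Cells of each mouse were left without stimulation (control), given lipopolysaccharide (LPS, a bacterial outer membrane component that TLR4 senses) on day 8 for 6 h at 1 µg/mL, given 25 µM of aglycone quercetin, a flavonol of plants, on day 5 and again on day 7, or given that quercetin and then that LPS. This makes 4 groups of 4 libraries. No vehicle control for quercetin is named in the labels, and the growth factors of the culture are not given in the sources used here.

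A canonical miRNA is cut from a hairpin transcript by Drosha in the nucleus and Dicer in the cytoplasm, and 1 strand of the resulting duplex is loaded into an Argonaute protein. The loaded strand finds messenger RNAs mainly through its seed, bases 2 to 8 from the 5′ end. Catalogue numbers are given in order of discovery, so high numbers mostly belong to miRNAs found by deep sequencing, many of them scarce and conserved in few species. Many are mirtrons, whose hairpin is a short intron or one end of an intron and is released by the splicing machinery in place of Drosha. Others lie within small nucleolar RNAs (snoRNAs, guides of ribosomal RNA modification) or match pieces of transfer RNAs.

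Counts of the 108 members summed to 289588, or 0.187% of all miRNA counts. Library totals ran from 6454535 to 13943904 counts, and those of the quercetin libraries (7694885 to 8563815) lay below those of the controls (8660267 to 12529118). Totals with both agents (6454535 to 9035375) likewise lay below those with LPS alone (10096639 to 13943904). Between 101 and 108 members had at least 1 count in a library, the fewest in quercetin plus LPS 4. Levels are given as CPM, counts relative to a total of 1000000, on library sizes scaled with TMM, which assumes that most miRNAs do not change. They are not divided by length, since the mature sequences span only 18 to 26 bases. As a check of the cell type, all 6 myeloid and dendritic cell miRNAs of a marker list were present, at a summed 51441 to 104495 CPM per library. Erythroid miRNAs (miR-451a, miR-144 and miR-486 arms) summed to 775 to 1769 CPM in control libraries, 865 to 2797 CPM with LPS, 5042 to 13118 CPM with quercetin and 2343 to 5843 CPM with both agents. All 5 of them were called higher in both comparisons of quercetin. A list of 7 stromal miRNAs summed to 31.6 to 542 CPM in control libraries, 41.8 to 90.7 CPM with LPS, 108 to 1283 CPM with quercetin and 124 to 4592 CPM with both agents, with none called without LPS and 5 called higher with it. The lymphocyte list (miR-150-5p and miR-181a-5p, both also found in other blood cells) summed to 72376 to 145007 CPM, a range that overlaps that of the myeloid list and reaches higher, and the 4 epithelial miRNAs to 106 to 201 CPM, with no call in either comparison of quercetin. No marker of these lists was at 0 in all libraries. In bulk RNA fewer cells of a type and less RNA per cell cannot be told apart, and the part of these other cells in the results below was not tested. The departures of control 3 from its group mean correlated across miRNAs with those of the libraries of mouse 4 (mean r 0.57) and not with those of its own mouse 3 (-0.27), and those of control 4 with mouse 3 (0.31) and not with mouse 4 (-0.21). LPS 3, quercetin plus LPS 1 and quercetin plus LPS 3 did not correlate best with their own mouse either, while all the remaining libraries did. The mouse numbers of control 3 and control 4 are in doubt, and with them the age of each, and the cause was not tested. Both are labelled control, and the tests below do not use the number.

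The mature sequences come from RefSeq (GRCm38.p6), which held one for 91 of the 108 members. Genes are from GENCODE M21 on GRCm38. The build in the submitters' processing notes is mm9, so names and not positions joined the counts to these sequences. Capitals mark the seed, which sets the targets a miRNA can pair with. The members called in both quercetin comparisons and with a sequence are shown first, the 5 that were higher and then 4 of the 7 that were lower.
miR-7033-5p: uCUCCAGGagucugaggggcagg
miR-6481: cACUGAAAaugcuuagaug
miR-8095: aAAGGAUUcugcugucuguccc
miR-5121: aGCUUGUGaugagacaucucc
miR-3057-5p: aUUGGAGCugagauucugcgggau
miR-7655-3p: uUUAUGACgcuccgugggccug
miR-3963: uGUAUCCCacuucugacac
miR-3968: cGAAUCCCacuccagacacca
miR-7007-3p: cCCAUCCAcguuucuucu
These 9 have 9 different seeds. The most abundant member, miR-5099, has only its hairpin in the table, 74 bases at chr12:36816205-36816278 on the plus strand. Its overlap with other genes was not tested.
Mir5099 hairpin: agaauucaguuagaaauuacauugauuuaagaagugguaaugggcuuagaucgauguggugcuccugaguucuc

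Genome positions set many of these miRNAs apart from the older entries, as a description of the catalogue and not of the cells. Of 40 members from the 3p arm with a position, 25 (62.5%) ended within 5 bases of the 3′ splice site of their host intron, the arrangement of a mirtron. Among names below 3000 with the same count sum it was 4 of 162 (2.47%), and among late names below that sum 150 of 225 (66.7%). The last letters differed as well: 20 of the 40 (50.0%) ended in AG, the letters that end an intron, against 4.94% of the older 3p names. The share was 15 of 17 (88.2%) in the run of catalogue numbers in which most mouse mirtrons were entered, here the members from miR-6899 to miR-7091. Of the 28 members from the 5p arm, 11 (39.3%) come from a hairpin that ends within 5 bases of an acceptor, though the arm itself lies further in, against 3 of 165 older names (1.82%). The following 5 members end at a splice acceptor, and 4 of them carry these letters.
miR-7015-3p: uCUCACUGuccucugcacuag
miR-7068-3p: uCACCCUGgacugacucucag
miR-7043-3p: aCUGUGCCucucuguuuucag
miR-6963-3p: uGCCUCUUgccuccaucccacag
miR-5129-3p: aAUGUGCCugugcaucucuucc
They lie in introns of Smap2, Cherp (exonic in other transcripts), Rassf4, Itga5 (the integrin alpha 5 chain) and Zeb2 (a transcription factor). The last, miR-5129-3p, ends 5 bases short of its acceptor and has the seed of miR-455-5p.

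The mature sequence overlapped a gene annotated as a small RNA of another kind for 8 of 91 members (8.79%), against 2.31% of the older names. For both arms of miR-3068 that gene is Mir3068 itself, which GENCODE labels a snoRNA. miR-5121 (chr7:45126925-45126945, minus strand) lies inside Snord33, a snoRNA in the ribosomal protein gene Rpl13a. Both arms of miR-3084 lie inside Snora19 in Eif3a and its copy in Cbwd1, and miR-3535 inside a snoRNA of Ncl, which encodes nucleolin. A further member, miR-6481, has its gene antisense to Wars2 at chr3:99199367-99199385, and its 19 letters also match mt-Tf, the mitochondrial transfer RNA for phenylalanine. Reads of such a host RNA and of the miRNA cannot be told apart by these letters. By annotation 50 members lay in an intron, 13 in an exon, 16 in an exon or intron depending on the transcript, and 12 outside genes of the same strand. Most of the members had few reads: the mean over libraries ran from 0.946 to 705 CPM with a median of 2.96, and 24 members reached 10 CPM. Older names with the same count sum had a median of 35.1 CPM. The lowest members inside the sum threshold were miR-7655-5p (160 counts in all), miR-3061-5p (162) and miR-6971-3p (165), and the highest names outside it were miR-7042-5p (156), miR-7023-3p (146) and miR-3079-5p (144).

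The members' joint share of the counts was 0.183 to 0.215% in control libraries and 0.200 to 0.235% with LPS, against 0.155 to 0.172% with quercetin and 0.126 to 0.163% with both agents. A single miRNA, miR-5099, moved in the same way. It held 0.0810 to 0.113% of the counts in the 8 libraries without quercetin and 0.0353 to 0.0431% in the 8 libraries with it. The other 107 members together held 0.0968 to 0.128%, 0.103 to 0.123%, 0.116 to 0.131% and 0.0868 to 0.128% in the 4 groups, which overlap.

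**Figure D1:**
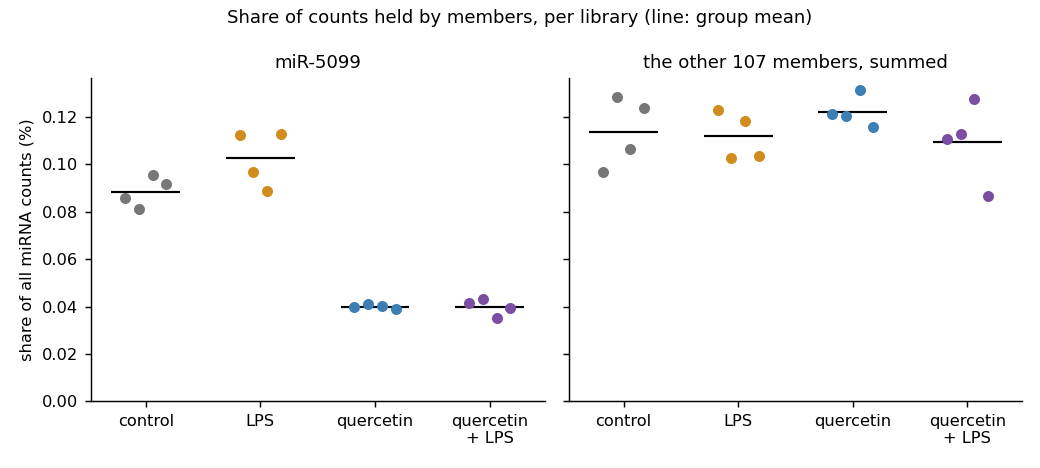
Share of all miRNA counts (%) held by miR-5099 (left) and by the other 107 members summed (right) in each of the 16 libraries; points are libraries and lines group means. miR-5099 lies at 0.0353 to 0.0431% in every library with quercetin and at 0.0810% or more in every library without it, while the ranges of the other members overlap.

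Quercetin alone was compared with control to ask how the flavonol changes resting dendritic cells. Of the 107 members that passed the filter on low counts (miR-6971-3p did not), 16 were called, 7 higher and 9 lower, at an edgeR adjusted p under 0.05. Over all 568 miRNAs tested 15.8% were called, 6.87% higher and 8.98% lower, so the members' share was near the background. Groups that did not overlap at all were found for 11 members higher and 12 lower, against 10.4% and 11.1% of all miRNAs. Their median log2 fold change was 0.01 and that of all miRNAs was -0.05. Quercetin plus LPS was compared with LPS to ask the same of stimulated cells. Here 27 of 107 members (25.2%) were called, 6 higher and 21 lower, against 22.9% of all miRNAs (8.63% higher, 14.3% lower). Leaving out LPS 2, LPS 1 or quercetin plus LPS 2 lowered the 27 to 15, 16 or 17, and leaving out any other library to between 20 and 24. Groups did not overlap for 5 members that were higher and 19 that were lower, against 6.87% and 13.4% of all. The median was -0.27 for the members and -0.13 for all. Upper quartile scaling moved the medians of all miRNAs to 0.15 and 0.14 and the members' calls to 11 higher and 7 lower without LPS and to 10 higher and 16 lower with it.

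The quercetin comparisons share no library, but they use cells of the same mice and a shared estimate of the spread. In both of them 12 members were called: 75% of the 16 and 44.4% of the 27. The same overlap over all miRNAs tested was not counted, so it is not shown to be particular to the members. All 12 had the same direction in both. Of these, 5 rose: miR-7033-5p, miR-6481, miR-8095, miR-5121 and miR-3057-5p. The other 7 fell: miR-5099, miR-7655-3p, miR-3963, miR-5107-5p, miR-3968, miR-6539 and miR-7007-3p. Another 4 were called without LPS alone and 15 with LPS alone, and 77 members in neither, among them the untested one. Of the 31 called in either, 14 had fewer than 80 counts in all, that is, below 0.5 of the sum threshold, in the 8 libraries with quercetin or in the 8 without it, so that they reached the threshold mainly through the side where they were higher. These were miR-8095, miR-7655-3p, miR-7007-3p and miR-6539 among the 12, and miR-5100, miR-3061-5p, miR-3088-3p, miR-6916-5p, miR-6933-5p, miR-6946-3p, miR-6963-3p, miR-6990-5p, miR-6996-5p and miR-7655-5p. Their differences are tied to the rule that chose them, and the counts of called members above lend no support of their own.

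**Figure D2:**
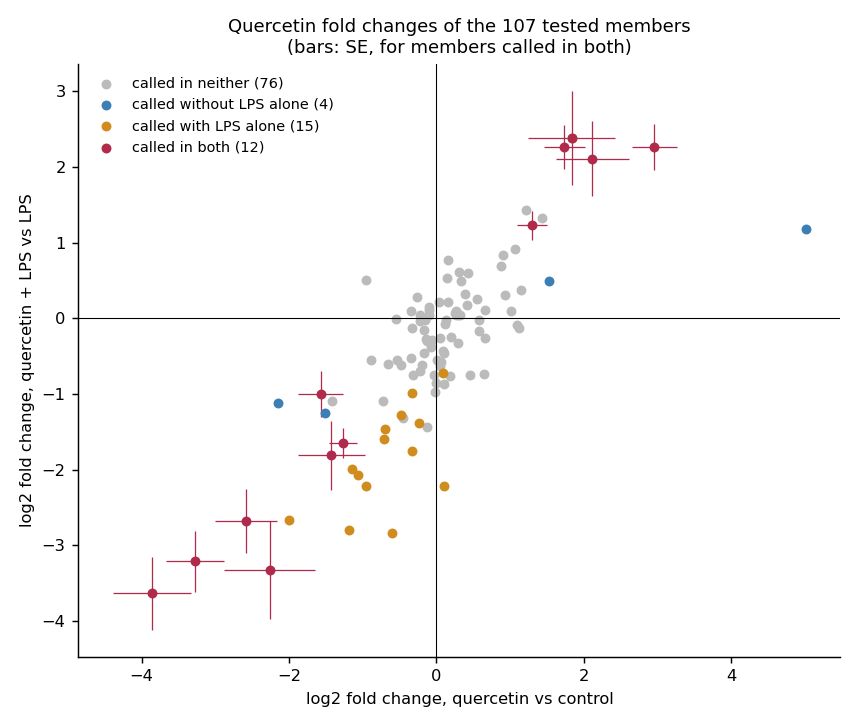
Log2 fold change of quercetin vs control (x axis) against quercetin + LPS vs LPS (y axis) for the 107 tested members, coloured by where they were called; bars are standard errors of the 12 members called in both. The 5 that rose in both lie in the upper right and the 7 that fell in both in the lower left, from miR-7007-3p at -3.86 and -3.63 to miR-7033-5p at 2.96 and 2.27.

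Among the members that rose in both comparisons, miR-7033-5p had the largest change without LPS. It lies in an intron of Pom121, which encodes a nuclear pore protein (chr5:135383783-135383805, minus strand). Its hairpin ends at the splice acceptor of that intron, the arrangement of a mirtron, and the 5p arm itself ends 53 bases before it. Its level was 2.94, 4.41, 6.66 and 4.50 CPM in controls 1 to 4 and 48.1, 33.1, 31.9 and 30.4 CPM with quercetin. In LPS libraries it was 3.62, 3.70, 4.92 and 3.79 CPM, and in quercetin plus LPS libraries 25.3, 17.4, 23.4 and 11.2 CPM. Every library with quercetin lay above every library without it. The log2 fold change was 2.96 ± 0.31 (SE, n = 4 per group, edgeR adjusted p = 7.9e-06) without LPS and 2.27 ± 0.30 (edgeR adjusted p = 5.0e-05) with it.

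miR-5121, the snoRNA-derived sequence in Rpl13a, was among the 5 most abundant members. It stood at 37.7, 28.1, 21.5 and 23.5 CPM in control and 131, 57.9, 70.0 and 110 CPM in quercetin libraries. With LPS the values were 27.2, 17.6, 24.9 and 21.7 CPM, and with quercetin plus LPS 120, 134, 88.0 and 97.7 CPM. The groups with and without quercetin did not overlap. It rose by a log2 fold change of 1.74 ± 0.28 (edgeR adjusted p = 0.00045) and of 2.26 ± 0.29 with LPS (edgeR adjusted p = 4.2e-05). Of the 9 members in or matching an annotated small RNA, 2 rose without LPS (miR-5121 and miR-6481), and the same 2 rose and miR-3084-3p fell with LPS. The median log2 fold change of the 9 was 0.31 without LPS and 0.25 with it. The 9 include both arms of miR-3068, counted through the snoRNA label of their own gene. These medians are the values of miR-3068-5p and of miR-3068-3p. The snoRNA-derived miR-3535 had log2 fold changes of 0.39 (edgeR adjusted p = 0.48) and 0.32 (edgeR adjusted p = 0.55).

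miR-3057-5p overlaps Apba3, an adaptor protein gene (chr10:81271610-81271633, plus strand, exonic or intronic by transcript). It measured 26.8, 36.9, 31.9 and 29.9 CPM in control libraries, 29.6, 32.7, 31.0 and 28.7 CPM with LPS, 83.9, 58.1, 80.9 and 85.1 CPM with quercetin, and 82.3, 73.4, 76.9 and 52.9 CPM with both agents. All 8 values with quercetin exceeded all 8 without it. The log2 fold changes were 1.30 ± 0.20 (edgeR adjusted p = 0.00025) and 1.23 ± 0.20 (edgeR adjusted p = 0.00035).

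The other 2 members that rose in both comparisons were scarce. miR-6481, the sequence that matches mt-Tf, was at 0.411 to 1.70 CPM in control libraries, 0.476 to 2.02 CPM with LPS, 3.06 to 6.96 CPM with quercetin and 3.63 to 6.97 CPM with both agents, with log2 fold changes of 2.12 ± 0.50 and 2.11 ± 0.50. miR-8095, in an intron of Dgkg (a diacylglycerol kinase gene), was at 0.308 to 1.00, 0.0974 to 0.575, 0.942 to 3.08 and 0.581 to 3.09 CPM in the same order. It reached the sum threshold with 140 counts in the libraries with quercetin and 40 in those without, so its rise is not independent of the choice. Its log2 fold change with LPS was 2.38 ± 0.62 (edgeR adjusted p = 0.013). Without LPS it was 1.84 ± 0.59 (edgeR adjusted p = 0.045), and that call was lost when any of 6 of the 8 libraries was left out (controls 1, 2 and 4 and quercetin 1, 3 and 4; edgeR adjusted p 0.057 to 0.13), with no filter on low counts (0.070) and in limma-voom (0.071).

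**Figure D3:**
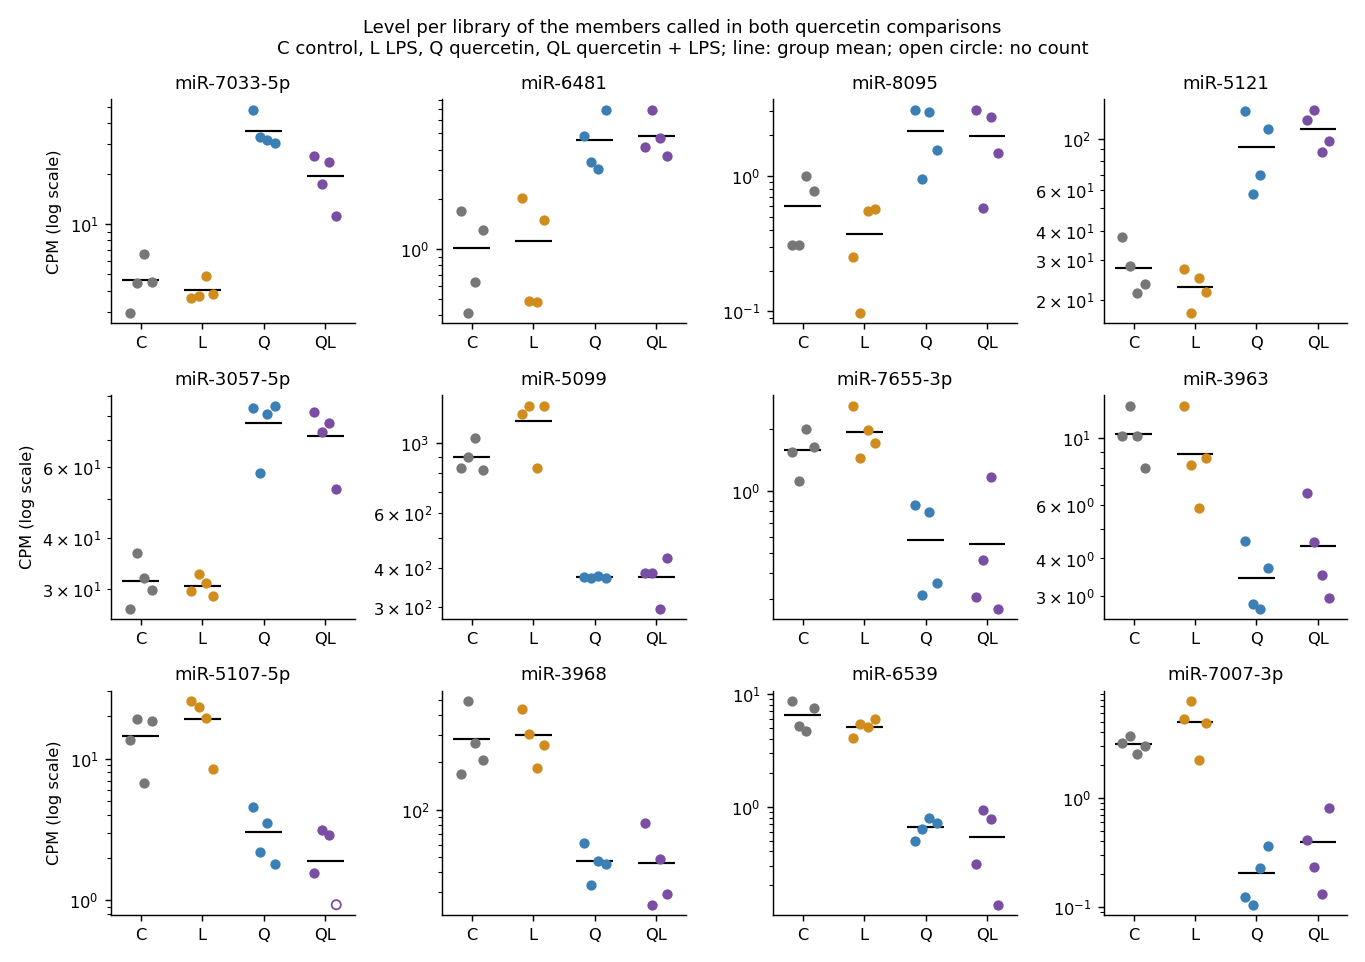
CPM per library (log scale) of the 12 members called in both quercetin comparisons, ordered by fold change; C is control, L LPS, Q quercetin and QL quercetin + LPS, lines are group means and the open circle is a library with no count. The first 5 panels are higher and the other 7 lower with quercetin; miR-5099 sits at 296 to 429 CPM in all 8 quercetin libraries.

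Among the members that fell, miR-5099 had by far the most reads. It measured 832, 906, 1041 and 822 CPM in control and 1234, 1316, 833 and 1308 CPM in LPS libraries. With quercetin it measured 375, 370, 377 and 372 CPM, and with quercetin plus LPS 385, 387, 296 and 429 CPM. The 4 quercetin libraries had a mean of 374 CPM with an SD of 3.02. The fall was 2.41-fold without LPS (log2 fold change -1.27 ± 0.19, edgeR adjusted p = 0.00025) and 3.13-fold with it (-1.65 ± 0.19, edgeR adjusted p = 2.4e-05).

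miR-3968 and miR-3963 are intergenic sequences that resemble each other and miR-5100, a member in an intron of Mief2. The motif AUCCCA was taken from these 3 sequences and searched in the mature sequences on the strand given. It was found in 4 of 91 members and in 7 of the 1155 names of the table with a sequence (0.606%), members included. The 3 were bound to match, so these counts do not show that members carry the motif more often. The motif is in capitals here to show where the 3 sequences coincide.
miR-3968: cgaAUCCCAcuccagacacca
miR-3963: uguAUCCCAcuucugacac
miR-5100: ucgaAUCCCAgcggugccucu
The longest run of letters shared by miR-3968 and miR-5100 is CGAAUCCCA (9 bases), and that shared by miR-3968 and miR-3963 is AUCCCACU (8 bases). The fourth match is miR-6963-3p. miR-3968 also ends in CCA, as do 2 of 91 members and as do mature transfer RNAs. None of the 91 members with a position overlapped an annotated transfer RNA gene, and the other 17 members had no position. A match of the sequences to nuclear transfer RNAs was not tested.

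These 3 miRNAs did not share a direction. miR-3968 fell from 168, 486, 266 and 206 CPM in control to 61.9, 33.4, 47.6 and 45.3 CPM with quercetin, and from 438, 304, 184 and 258 CPM with LPS to 81.8, 25.0, 48.4 and 29.1 CPM with both. The groups did not overlap, and the log2 fold changes were -2.58 ± 0.42 (edgeR adjusted p = 0.00051) and -2.68 ± 0.42 (edgeR adjusted p = 0.00034). miR-3963 fell from 7.96 to 12.8 CPM in control to 2.72 to 4.55 CPM with quercetin (-1.57 ± 0.31, edgeR adjusted p = 0.0026). With LPS its change of -1.004 ± 0.31 (edgeR adjusted p = 0.029) was no longer called without any one of 7 of the 8 libraries, all but quercetin plus LPS 1 (edgeR adjusted p 0.050 to 0.29, log2 fold change -0.55 at the weakest, without LPS 1), and under RLE, upper quartile or library size scaling or no filter on low counts (0.059 to 0.17). miR-5100 was higher with quercetin and LPS than with LPS alone (2.16, 5.69, 5.08 and 0 CPM against 0.843, 0.877, 0.555 and 0.115 CPM; 2.39 ± 0.78, edgeR adjusted p = 0.036). That call was lost without LPS 1, 2, 3 or 4 or quercetin plus LPS 2 or 3 (edgeR adjusted p 0.053 to 0.077) and in limma-voom (adjusted p = 0.40), and without LPS the change of 1.84 ± 0.73 was not called (edgeR adjusted p = 0.11). Counts of miR-5100 were 77 without quercetin and 261 with it, so its rise is not independent of the choice of members.

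The largest falls without LPS belonged to 2 scarce members, miR-7007-3p and miR-6539. Counts without and with quercetin were 344 and 20 for the first and 504 and 41 for the second. Both thus reached the sum threshold mainly through the side where they were higher, and their falls are not independent of the choice. miR-7007-3p ends 4 bases from a splice acceptor in Cpa3, the gene of a mast cell carboxypeptidase (chr3:20222294-20222311, minus strand). It was at 3.17, 3.70, 2.51 and 3.03 CPM in control and 0.123, 0.105, 0.227 and 0.360 CPM in quercetin libraries, the latter from 1 to 3 counts each. Summed counts were 132 against 7, which is 15.6-fold after scaling (95% interval 7.35 to 39.5, counting error only). In LPS libraries it was at 5.31, 7.69, 2.22 and 4.83 CPM and in quercetin plus LPS libraries at 0.412, 0.232, 0.130 and 0.807 CPM, a 12.6-fold difference (7.18 to 24.0). The fitted log2 fold changes were -3.86 ± 0.53 (edgeR adjusted p = 0.00010) and -3.63 ± 0.48 (edgeR adjusted p = 5.0e-05). miR-6539 fell from 4.65 to 8.59 CPM in control to 0.492 to 0.794 CPM with quercetin, and from 4.05 to 5.98 CPM with LPS to 0.135 to 0.929 CPM with both, with log2 fold changes of -3.28 ± 0.40 and -3.21 ± 0.41. A few rows of the deposited table look exchanged with their neighbour in the quercetin libraries. The scan that found them compared only adjacent rows, each with a log2 change beyond 2.5 in opposite directions. It listed neither miRNA, and weaker exchanges or those between rows further apart were not tested.

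miR-5107 was one of 8 hairpins with both arms among the members, paired by names that differ only in 5p and 3p, and its arms differed. The 5p arm was at 13.5, 19.2, 6.78 and 18.4 CPM in control and 4.55, 2.20, 3.52 and 1.80 CPM in quercetin libraries. It was at 25.5, 23.4, 19.3 and 8.51 CPM in LPS and 1.54, 3.14, 2.86 and 0 CPM in quercetin plus LPS libraries. It fell by a log2 fold change of -3.33 ± 0.65 with LPS (edgeR adjusted p = 0.0020) and of -2.26 ± 0.62 without (edgeR adjusted p = 0.021), the latter lost without control 2 or quercetin 2, 3 or 4 (edgeR adjusted p 0.055 to 0.069). The 3p arm, at 20.3 to 47.6 CPM over all libraries, was not called in either comparison (-0.16 ± 0.26 and -0.45 ± 0.26; edgeR adjusted p = 0.73 and 0.22). The 5p arm thus made up 31.9% of the hairpin's counts in control libraries, 35.2% with LPS, 9.35% with quercetin and 6.62% with both agents. Per library the share ran from 17.8 to 37.3%, 15.2 to 46.6%, 5.84 to 18.3% and 0 to 12.7% in the same order, so those of control and quercetin met. The 5p arm was the lowest of its group in control 3, LPS 4, quercetin 4 and quercetin plus LPS 4, the libraries named below for the most variable members. The 3p arm was lowest in other libraries. Neither arm has a mature sequence in the RefSeq set used. The difference between the arms was not tested.

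**Figure D4:**
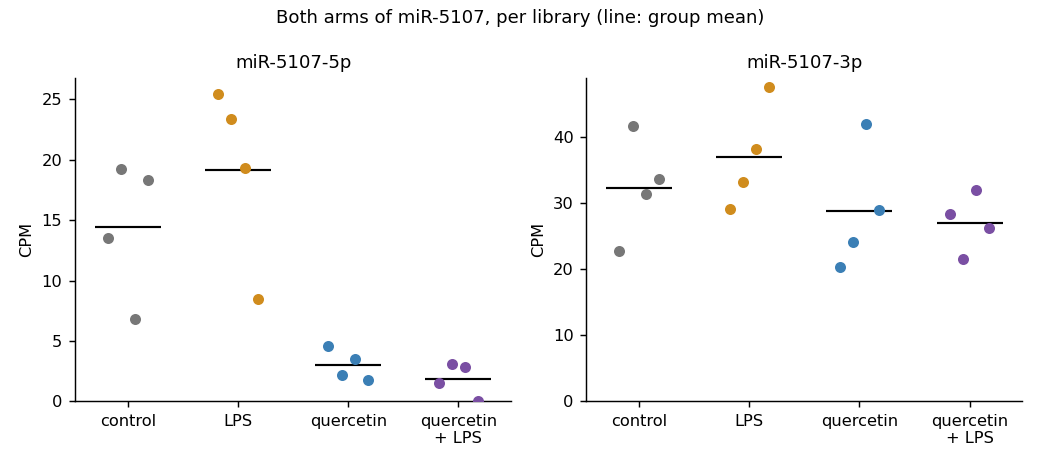
CPM per library of the 5p arm (left) and 3p arm (right) of miR-5107, with group means as lines and both axes from 0. The 5p arm lies at 6.78 CPM or more without quercetin and at 4.55 CPM or less with it, while the 3p arm lies between 20.3 and 47.6 CPM in all groups.

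The 5p share of miR-3068 was 9.74 to 13.1% over the 4 groups, that of miR-7091 35.7 to 41.4%, that of miR-3098 46.7 to 49.3% and that of miR-7676 3.27 to 6.78%. miR-3084, in its snoRNAs, had 9.06% and 7.26% of its counts on the 5p arm in control and LPS and 13.7% and 14.6% with quercetin. Its 3p arm fell in quercetin plus LPS vs LPS (-1.46 ± 0.40, edgeR adjusted p = 0.017), a call lost without LPS 1 or 2 or quercetin plus LPS 1, 2 or 3 (edgeR adjusted p 0.051 to 0.13, log2 fold change -0.85 at the weakest, without LPS 2). miR-3061, in an exon of Ppp2ca (the catalytic subunit of protein phosphatase 2A), had a 5p share of 11.4% in control libraries, 16.1% with LPS, 12.2% with quercetin and 3.41% with both agents. Its 5p arm, with 162 counts in all, fell in quercetin plus LPS vs LPS (-2.21 ± 0.71, edgeR adjusted p = 0.035), a call lost without LPS 1, 2 or 3 or quercetin plus LPS 1, 2 or 4 (edgeR adjusted p 0.057 to 0.16), and with library size scaling, no filter or limma-voom (0.055 to 0.074). miR-7655, in an intron of Mllt10, had a 5p share of 53.8% in control libraries, 41.5% with LPS, 42.9% with quercetin and 28% with both agents. Both arms were called lower in quercetin plus LPS vs LPS, miR-7655-3p at -1.81 ± 0.46 (edgeR adjusted p = 0.011) and miR-7655-5p at -2.66 ± 0.85 (edgeR adjusted p = 0.035), each from 190 counts or fewer in all. The 5p arm, exactly at the sum threshold, had 138 counts without quercetin and 22 with it, and the 3p arm 152 and 38, so these falls are not independent of the choice. The first was lost without LPS 1 or quercetin plus LPS 4 (edgeR adjusted p 0.051 to 0.057) and the second without LPS 1 or 2 or quercetin plus LPS 1, 2 or 4 (0.067 to 0.16), with library size scaling (0.064) and in limma-voom (0.062). In quercetin vs control miR-7655-3p fell by 1.43 ± 0.45 on the log2 scale (edgeR adjusted p = 0.042), a call that ended when quercetin 2, 3 or 4 was left out or else control 1, 3 or 4 (edgeR adjusted p 0.061 to 0.13), and with upper quartile or library size scaling or no filter (0.074 to 0.096), and miR-7655-5p was not called.

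Of the 15 members called in quercetin plus LPS vs LPS alone, 14 fell. The smallest adjusted p belonged to miR-3473d, in an intron of the RNA helicase gene Ddx19b, with 34.4, 31.4, 30.4 and 16.8 CPM in LPS and 4.22, 8.01, 11.98 and 2.56 CPM in quercetin plus LPS libraries. Its log2 fold change was -2.08 ± 0.43 (edgeR adjusted p = 0.0034), against -1.07 ± 0.42 without LPS (edgeR adjusted p = 0.11). Its seed is that of miR-1947-3p and miR-674-5p. miR-6996-5p, in an intron of the receptor gene Notch1, fell from 1.19 to 3.31 CPM to 0 to 0.618 CPM (-2.83 ± 0.65, edgeR adjusted p = 0.0071), from 84 to 9 counts. miR-6963-3p, at the splice acceptor in Itga5, fell from 1.67 to 4.77 CPM to 0.538 to 1.04 CPM (-1.99 ± 0.47, edgeR adjusted p = 0.0078). miR-7062-5p, in Adam8 (a membrane metalloproteinase of leukocytes), fell from 2.76 to 4.48 CPM to 0.412 to 2.08 CPM (-1.59 ± 0.39, edgeR adjusted p = 0.0095). These 4 calls held without each library in turn and under each other alternative fitted. Counts without and with quercetin were 151 and 46 for miR-6996-5p and 231 and 60 for miR-6963-3p. These 2 falls are thus not independent of the choice of members, and the alternatives, fitted to the same counts, do not remove that tie.

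The remaining falls of that comparison were less firm. miR-7683-5p, in an intron of the leukocyte receptor gene Slamf7, was at 10.96 to 16.4 CPM with LPS and 5.99 to 9.01 CPM with both agents (-0.99 ± 0.26, edgeR adjusted p = 0.013), a call lost without LPS 2 or 4 or quercetin plus LPS 2 or 3 (0.055 to 0.069), with upper quartile scaling (0.088) and with no filter (0.082). miR-7068-3p, the mirtron-like sequence in Cherp, was at 42.8 to 67.5 CPM and 20.7 to 41.6 CPM (-0.72 ± 0.23, edgeR adjusted p = 0.032). Any one of 7 of the 8 libraries, all but quercetin plus LPS 1, ended that call when left out (edgeR adjusted p 0.087 to 0.36, log2 fold change -0.34 at the weakest, without quercetin plus LPS 4). It was also lost with RLE, upper quartile or library size scaling, no filter, a minimum mean of 10 CPM and DESeq2 (adjusted p 0.061 to 0.28). miR-3074-1-3p (-1.76), miR-6979-3p (-1.39), miR-6933-5p (-2.22), miR-6946-3p (-1.28) and miR-6990-5p (-2.80, from 70 to 7 counts) were called too. The first was lost without LPS 1 or 2 or quercetin plus LPS 2 or 4 (edgeR adjusted p 0.053 to 0.095) and miR-6979-3p without any library but quercetin plus LPS 1 (0.052 to 0.15). miR-6933-5p was lost without LPS 1, 2 or 3 or quercetin plus LPS 1 or 4 (0.050 to 0.13), miR-6946-3p without any 1 of the 8 (0.054 to 0.16), and miR-6990-5p without LPS 1, 2 or 3 or quercetin plus LPS 1, 2 or 4 (0.070 to 0.10). Library size scaling ended the calls of miR-6979-3p, miR-6933-5p, miR-6946-3p and miR-6990-5p (0.057 to 0.087). Upper quartile scaling and no filter each ended those of miR-6979-3p and miR-6946-3p (0.057 to 0.11), and RLE scaling that of miR-6946-3p (0.056). The interaction test found no member whose quercetin difference changed with LPS: 0 of 107 were called, as were 0 of all 568, with 8 members and 4.58% of all miRNAs under an unadjusted p of 0.05 and a smallest edgeR adjusted p of 0.89. DESeq2 and limma-voom also called 0. So none of the 15 was shown to respond differently in stimulated cells.

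Called in quercetin vs control and not with LPS were miR-3074-5p, miR-3088-3p, miR-3547-3p and miR-6916-5p, and none of these was called in the interaction test. miR-6916-5p, in Esyt1, fell from 1.75 to 2.32 CPM to 0.123 to 0.840 CPM (-2.14 ± 0.43, edgeR adjusted p = 0.0028), against -1.12 ± 0.40 with LPS (edgeR adjusted p = 0.052). miR-3547-3p, at the splice acceptor in Baiap3, rose by 1.53 ± 0.47 on the log2 scale (edgeR adjusted p = 0.034) and miR-3088-3p, in Ak8, fell by 1.51 ± 0.48 on the log2 scale (edgeR adjusted p = 0.045). Each of these 2 calls was lost without any of 7 of the 8 libraries, all but quercetin 1 for miR-3547-3p (edgeR adjusted p 0.050 to 0.10) and all but control 4 for miR-3088-3p (0.053 to 0.19). Library size scaling and no filter ended both calls (0.053 to 0.11), and RLE scaling, upper quartile scaling and limma-voom that of miR-3088-3p (0.053 to 0.086). Counts without and with quercetin were 166 and 44 for miR-6916-5p and 144 and 44 for miR-3088-3p. The falls of miR-6916-5p and miR-3088-3p are thus not independent of the choice.

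miR-3074-5p comes from the strand opposite miR-24, at Mir3074-1 (chr13:63301249-63301270) and Mir3074-2 (chr8:84208873-84208894), both on the minus strand. Its first 20 of 22 bases, in capitals, are the reverse complement of miR-24-3p, which is shown under it.
miR-3074-5p: GUUCCUGCUGAACUGAGCCAgu
miR-24-3p: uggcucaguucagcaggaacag
Whether the counting used strand is not given in the sources used here. Counts of miR-3074-5p were 4, 0, 1 and 0 in control libraries, 8, 48, 4 and 28 with LPS, 55, 1, 37 and 47 with quercetin, and 47, 47, 48 and 25 with both agents. Quercetin 2 stood with the controls and the rest of its group did not. The log2 fold change of quercetin vs control was 5.01 ± 1.11 (edgeR adjusted p = 0.0066; limma-voom adjusted p = 0.054), and the summed counts of 140 against 5 are 33.9-fold apart after scaling (95% interval 14.2 to 106, counting error only). In LPS vs control it was 4.09 ± 1.13 (edgeR adjusted p = 0.21; DESeq2 adjusted p = 0.0076). The member miR-3074-1-3p is by its name the 3p arm of Mir3074-1, but it was not among the hairpins paired above. Its log2 fold change in quercetin plus LPS vs LPS was -1.76, a call lost without some libraries, as said above. The difference between these arms was not tested.

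LPS vs control and quercetin plus LPS vs quercetin ask what 6 h of TLR4 stimulation does without and with the flavonol. In the first 0 of 107 members were called by edgeR, 3 had an unadjusted p under 0.05 (miR-3074-5p, miR-7043-3p and miR-7683-5p; 4.58% of all miRNAs did), DESeq2 called miR-3074-5p and limma-voom none. Over all miRNAs 0.528% were called. The members' median log2 fold change was 0.07 and that of all miRNAs 0.02. miR-7043-3p, at the splice acceptor in Rassf4, measured 30.01, 31.9, 33.4 and 31.4 CPM in control and 35.5, 49.0, 42.7 and 56.2 CPM in LPS libraries, which do not overlap (0.53 ± 0.21, edgeR adjusted p = 0.76). Groups without overlap and higher with LPS were found for 3 members and for 2.11% of all miRNAs. In the second comparison 0 of 107 members were called by edgeR, DESeq2 or limma-voom, with 9 at an unadjusted p under 0.05 (7.22% of all miRNAs), against 0.352% of all miRNAs called. The smallest of these p-values was that of miR-7033-5p, at 30.4 to 48.1 CPM with quercetin and 11.2 to 25.3 CPM with both agents (-0.89 ± 0.28, edgeR adjusted p = 0.37).

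Most of the other abundant members were not called in any comparison. miR-3068-3p, at a mean of 117 CPM, had log2 fold changes of 0.55 ± 0.25 and 0.25 ± 0.24 in the quercetin comparisons. miR-7015-3p, the mirtron-like sequence in Smap2, had 0.25 ± 0.25 and 0.07 ± 0.25, and the intergenic miR-7688-5p -0.06 ± 0.21 and -0.29 ± 0.21. miR-8114, in an exon of Glul (glutamine synthetase), measured 23.4, 37.8, 21.7 and 43.2 CPM in control and 69.9, 69.9, 85.1 and 49.8 CPM with quercetin. These do not overlap, yet the difference missed the threshold (1.12 ± 0.38, edgeR adjusted p = 0.053), and with LPS it was -0.13 ± 0.37.

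By place in the genome, the 26 tested members within 5 bases of a splice site had 2 calls without LPS (1 higher, 1 lower; 7.69%) and 4 with it (all lower; 15.4%). The 26 in other introns had 5 (2 higher, 3 lower; 19.2%) and 10 (3 higher, 7 lower; 38.5%), with median log2 fold changes of -0.33 and -0.54. Of these 26, 8 were 5p arms of hairpins that end at a splice site, with 2 and 4 calls and medians of -0.63 and -0.87, and the other 18 had 3 and 6 calls and medians of -0.24 and -0.30. The 19 in exons, a class that includes members intronic in other transcripts, had 1 and 3 calls, and the 11 intergenic ones 3 and 2. Of the called members of the exon class, miR-3057-5p (in both comparisons) and miR-6990-5p (with LPS) are exonic or intronic by transcript. The other, miR-3061-5p (with LPS), is exonic. In the run of catalogue numbers that holds most mirtrons, the 31 tested members had 3 calls without LPS (9.68%) and 10 with it (32.3%, 1 higher and 9 lower), and their medians were -0.02 and -0.61. These counts stand beside 15.8% and 22.9% of all miRNAs, and differences between the classes were not tested. Several of the calls are of members tied to the sum threshold, as said above. In other introns with LPS these are miR-5100, miR-6933-5p, miR-6996-5p, miR-7655-3p, miR-7655-5p and miR-8095. In the run of catalogue numbers with LPS they are miR-6933-5p, miR-6946-3p, miR-6963-3p, miR-6990-5p, miR-6996-5p and miR-7007-3p. The shares called in these classes are therefore not independent of the choice of members.

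**Figure D5:**
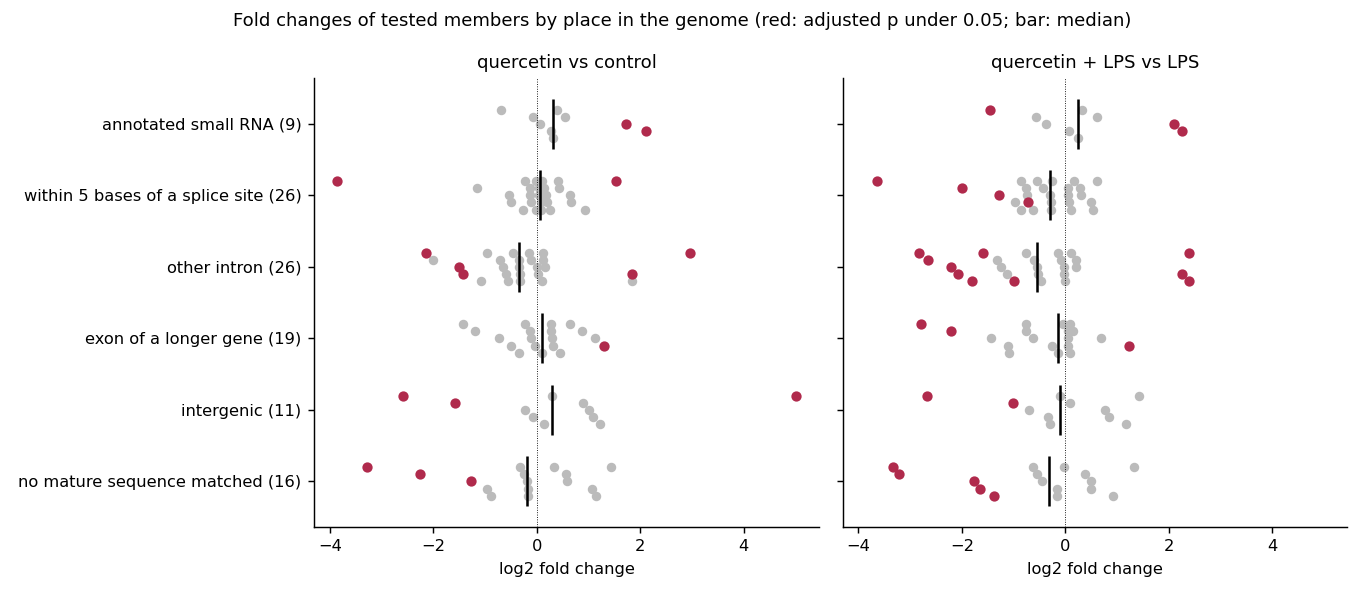
Log2 fold change of each tested member in quercetin vs control (left) and quercetin + LPS vs LPS (right) by place in the genome, with the number of members in brackets; red points have an edgeR adjusted p under 0.05 and bars are medians. Members in other introns include 8 whose hairpin ends at a splice site; the medians of members in other introns lie at -0.33 and -0.54 and those of members in annotated small RNAs at 0.31 and 0.25.

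Some abundant members varied widely within their groups. Among the 24 members with a mean of at least 10 CPM, the widest spread within groups on the log2(CPM + 0.5) scale belonged to miR-8112 (pooled SD 1.62), in an exon of Krcc1. Its level was 13.8, 17.9, 2.26 and 19.7 CPM in control libraries, 13.6, 37.1, 12.8 and 1.95 CPM with LPS, 29.0, 20.3, 20.1 and 3.96 CPM with quercetin, and 1.34, 7.32, 29.7 and 0.673 CPM with both agents. Next came miR-7035-3p (0.99), at a splice acceptor in Rasa4, miR-7676-3p (0.99), from exons of Csf2rb and Csf2rb2 (receptor chains for GM-CSF, IL-3 and IL-5 signals), miR-3473d (0.63) and miR-3968 (0.60). Control 3, LPS 4, quercetin 4 and quercetin plus LPS 4 were each the lowest of their group for 4 of these 5 miRNAs, which were singled out after their values were seen. miR-7676-3p, for example, was at 8.42, 14.4, 13.4 and 2.96 CPM in those 4 libraries and at 4.22 CPM in quercetin plus LPS 1, against 17.2 to 33.9 CPM in the other 11. None of miR-8112, miR-7035-3p and miR-7676-3p was called in any comparison. Over the 108 members, a library was the lowest of its group for 12 (quercetin 3) to 41 (quercetin plus LPS 4) and the highest for 14 (LPS 3) to 42 (quercetin 3).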

How the data were processed

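Small RNA of 16 libraries (TruSeq Small RNA kit, per the labels) was analysed. The authors deposited one table of raw read counts per mature miRNA; cutadapt and the build mm9 are named in the submitters' processing notes, and the aligner, the counting rule and the treatment of reads shared by several miRNAs are not given in the sources used here. Of 1381 rows with 1377 names, 4 names on 2 rows were summed, 1 row holding text was left out, and 4 rows that look exchanged in 2 neighbouring pairs were left out (found in a scan of 1380 neighbouring pairs), which left 1372 names. Depth and CPM precision follow from the counts, and intervals cover counting error only.

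Differences were tested by edgeR's quasi-likelihood method (4.0.16, R 4.3.3) after TMM scaling. The 568 miRNAs kept by filterByExpr entered a single model of the 4 groups in all 16 libraries, and p-values were adjusted over all 568 by Benjamini and Hochberg, with 0.05 as the threshold. The standard error is the absolute log2 fold change over the square root of F. Alternatives were other scalings and filters, DESeq2 1.42.0, limma-voom (limma 3.58.1), the mouse as a block, the exchanged rows kept, and each library left out. The procedure was tested on simulated data. The members, sublists and markers were chosen with earlier results of these data known. Named were members past the threshold, the 12 most abundant, both arms of shared hairpins, members sharing a seed, and those next to the sum threshold; others were chosen after their values were seen.

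Equal replicate numbers mark the same mouse, per the labels and the series design. Each library's departure from its group mean correlated across miRNAs at a mean r of 0.14 over 24 same-mouse pairs (-0.47 to 0.65, 11 over 0.1) and -0.04 over 72 other pairs (-0.58 to 0.67, 21 over 0.1). Control 3 and control 4 correlated with each other's mouse instead of their own, so the block is uncertain for them.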

Additional observations from a re-analysis of the deposited data

Results flagged for a closer look

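A library stood apart from the other 3 of its group by Dixon's criterion for 10 of 152 groups checked (38 members in 4 groups); chance flags about 1 in 20 groups. miR-7033-5p had highs at 48.1 CPM in quercetin 1 and 4.92 CPM in LPS 3. Other highs were miR-7068-3p at 67.5 CPM in LPS 2, miR-7062-5p at 4.62 CPM in control 2, miR-7683-5p at 9.01 CPM in quercetin plus LPS 4 and miR-6990-5p at 0.781 CPM in quercetin plus LPS 3, where the others had at most 0.116 CPM. Lows were miR-5099 at 833 CPM in LPS 3, miR-8114 at 28.3 CPM in LPS 4, miR-3057-5p at 58.1 CPM in quercetin 2 and miR-3061-5p at 0.340 CPM in quercetin 3. No member was flagged for a difference between the quercetin comparisons.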

How the results depend on the processing

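Of 43 calls of single members, 25 held without each left-out library, 28 under every other alternative that could be fitted and 24 under both, and 0 of 701 alternative values changed direction. Calls lost were 11 with library size scaling, 10 with no filter on low counts, 7 with upper quartile scaling, 6 with limma-voom, 4 with RLE scaling, 1 with DESeq2 and 1 with a mean of at least 10 CPM, a filter that most members do not pass. The replicate block lost 0 of these calls and called 18 members in quercetin vs control and 29 in quercetin plus LPS vs LPS; over all miRNAs it called 92 and 144, and 3, 2 and 0 in LPS vs control, quercetin plus LPS vs quercetin and the interaction.

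With a mean of at least 10 CPM, fewer miRNAs were tested and 55 were called in quercetin vs control (5 members) and 69 in quercetin plus LPS vs LPS (7 members). DESeq2 called 6 miRNAs in LPS vs control (1 member) and 4 in quercetin plus LPS vs quercetin, and library size scaling 1 in the former; the cause was not tested. The split of all calls into higher and lower was 48 and 29 with upper quartile scaling against 39 and 51 in quercetin vs control, and 71 and 54, 67 and 66 (RLE) and 75 and 50 (library size) against 49 and 81 in quercetin plus LPS vs LPS. Leaving out 1 library, with fewer samples, gave 54 to 76 calls in quercetin vs control (members 11 to 16; the lowest without quercetin 4), 80 to 133 in quercetin plus LPS vs LPS (members 15 to 24; 16, 15 and 17 without LPS 1, LPS 2 and quercetin plus LPS 2), 0 to 2 in LPS vs control and 2 to 7 in quercetin plus LPS vs quercetin. A count sum of at least 80 would give 159 members and one of at least 320 would give 69. Depth limits the members under 1 CPM, where a library holds about 10 counts or fewer.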
